A study of Mus musculus with 6 samples.

Results

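The BCL2 family genes decide at the mitochondrion whether a T cell lives or dies, and 10 of them were followed by their gene symbols in mouse T helper 9 (Th9) cells cultured with or without sphingosylphosphorylcholine (SPC), a bioactive lysophospholipid. The 10 were Bcl2, Bcl2l1, Bcl2l2, Mcl1, Bak1, Bcl2l11, Bid, Bad, Bmf and Bik. They were taken out of 23183 gene symbols listed for every library, of which 14718 to 15114 had a count above 0 in a library. All 10 passed the filter on low counts, as did 12226 genes in all. Bcl2l1, the gene of the survival protein BCL-XL, rose 1.51-fold with SPC. None of the other 9 passed the edgeR test, whether they protect from death or promote it, and none of the 9 had an unadjusted p under 0.05 in it.

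Naive CD4+ T cells from the spleen of wild-type C57BL/6N mice were the starting cells of every library. Cells of both groups were stimulated for 3 days with plate-bound anti-CD3e and soluble anti-CD28, each at 1 µg/ml. Both groups received the Th9 conditions, TGF-β1 at 2 ng/ml, IL-4 at 10 ng/ml and an antibody to IFN-γ at 10 µg/ml. The 3 control libraries had no further treatment in the labels, and the 3 SPC libraries came from cells that also had SPC (d18:1) at 30 µM. The series text describes 3 independent experiments, and the labels number the libraries 1 to 3 in each group. No age or sex of the mice is given in the labels. The naive cells were enriched with a kit, and the labels name no sort of the cells after culture.

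BCL2 family proteins fall into classes by role. Survival proteins (BCL2, BCL-XL, BCL-w, MCL1) hold the pore-forming effectors BAK and BAX in check at the outer mitochondrial membrane, and BH3-only proteins (BIM, BID, BAD, BMF, BIK) carry a short helix that binds the survival proteins or the effectors and tips the balance towards cytochrome c release. In T cells BCL2 supports resting and cytokine-dependent survival, BCL-XL is induced by activation and CD28 signals, MCL1 is needed throughout, and BIM drives the contraction of activated cells when cytokines are withdrawn.

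Libraries held 22002050 to 33049997 counts. All 11 T cell markers checked, among them Cd4 and Cd3e, were present, with a summed level of 2136 to 2417 CPM (counts scaled to 1000000 per library). Il9, which defines the Th9 state, stood at 522 to 559 CPM in control and 981 to 1412 CPM in SPC libraries. Markers of B cells summed to 3.63 to 3.82 CPM in control and 4.25 to 5.26 CPM in SPC libraries, with Ms4a1 at 0 counts in every library. Markers of dendritic cells summed to 2.63 to 3.68 CPM in control and 4.16 to 6.34 CPM in SPC libraries, with Clec9a at 0. Markers of stromal and epithelial cells summed to 8.86 to 15.2 CPM in control and 7.01 to 8.95 CPM in SPC libraries, with Krt8 at 0, and those of CD8 T and NK cells to 4.07 to 4.45 and 3.25 to 4.26 CPM, with Ncr1 at 0. The 10 myeloid markers summed to 1.98 to 2.32 CPM in control and 1.80 to 2.35 CPM in SPC libraries, with Fcgr1 and S100a8 at 0. Most of the B cell sum was Cd79b (3.22 to 3.41 CPM in control, 3.60 to 4.59 CPM with SPC). Most of the dendritic cell sum was Zbtb46 (2.43 to 3.22 and 3.58 to 5.78 CPM). Pecam1 made up most of the stromal and epithelial sum (6.60 to 11.5 and 5.32 to 6.78 CPM). The B cell, dendritic cell, and stromal and epithelial sums therefore mostly follow single genes. None of the sums measures amounts of cells. The part of these cells in the results was not tested.

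The sequence before 2 of the 3 start sites of Bcl2l1 is shown because it was the member that rose, and that of Bcl2l11 because this window held a match to the letters of FOXO factors, which are known to induce BIM. RefSeq (GRCm38.p6) windows of 300 bases, from 250 before to 50 after a start site, were at hand for 9 of the 10 members, 15 windows in all. The 250 bases before the start are printed 5′ to 3′ on the gene's strand, with a match in capitals. In the second sequence the capitals mark a match to the NF-kappaB consensus whose first base lies 242 bases before the start, and in the third a match to TGTTTAC on the opposite strand whose first printed base lies 227 bases before the start.
Bcl2l1, distal start, minus strand, chr2:152831729-152831978: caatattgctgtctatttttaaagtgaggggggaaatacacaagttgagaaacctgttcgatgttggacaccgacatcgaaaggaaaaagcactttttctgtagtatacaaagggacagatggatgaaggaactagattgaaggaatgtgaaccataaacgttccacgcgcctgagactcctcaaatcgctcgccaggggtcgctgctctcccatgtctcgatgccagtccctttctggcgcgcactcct
Bcl2l1, middle start, minus strand, chr2:152830718-152830967: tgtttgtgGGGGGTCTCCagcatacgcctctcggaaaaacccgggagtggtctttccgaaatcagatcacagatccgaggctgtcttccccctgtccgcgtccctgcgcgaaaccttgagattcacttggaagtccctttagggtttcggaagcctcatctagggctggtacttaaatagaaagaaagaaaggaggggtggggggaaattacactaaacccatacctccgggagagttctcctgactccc
Bcl2l11, plus strand, chr2:128125788-128126037: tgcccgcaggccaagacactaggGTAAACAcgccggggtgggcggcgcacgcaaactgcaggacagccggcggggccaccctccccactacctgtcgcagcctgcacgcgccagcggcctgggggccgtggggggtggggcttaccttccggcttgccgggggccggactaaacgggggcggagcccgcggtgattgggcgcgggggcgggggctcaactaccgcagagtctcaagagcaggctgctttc

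The window at the innermost start of Bcl2l1 and that at the second start of Bcl2l11 held no match to the letters searched and are not printed. The printed window at the distal start of Bcl2l1 held no match either. Matches were sought on both strands for TTCNNNGAA (STAT factors), TGTTTAC (FOXO), TGACGTCA (the cyclic AMP response element) and the NF-kappaB consensus. The NF-kappaB consensus was found in 2 of the 15 windows of the members, those of Bcl2l1 and Bmf, and in 8.46% of all 32851 RefSeq windows. TGTTTAC was found in 1 of the 15 and in 3.65% of all. TTCNNNGAA and TGACGTCA were found in none of the 15, and in 8.30% and 1.79% of all windows. Base composition varied widely among the members. Guanine and cytosine made up 76.0% of the Bcl2 window, with 44 CpG pairs, but 49.3% to 55.7% of the 3 Bcl2l1 windows, with 1, 14 and 22 CpG pairs.

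Among the survival genes, Bcl2l1 (chromosome 2, 152780668 to 152831728, minus strand, mm10) had 313, 284 and 275 CPM in control libraries 1, 2 and 3, and 494, 412 and 407 CPM in SPC libraries 1, 2 and 3. Every SPC library lay above every control library, and both libraries numbered 1 were the highest of their group. The group means were 291 ± 20.3 and 438 ± 48.7 CPM (SD, n = 3 each). The log2 fold change was 0.59 ± 0.09 (SE, 95% interval 0.38 to 0.80, adjusted p = 0.0434), and it was 0.66, 0.54 and 0.57 in the pairs numbered 1, 2 and 3. With the library number as a block, the fold change was 0.59 ± 0.05 (adjusted p = 7.2e-05). An adjusted p from this fit is called blocked below. In bulk RNA a change in the cells that express a gene and in the RNA per cell cannot be told apart, and counts per gene do not separate the splice forms BCL-XL and BCL-XS.

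Bcl2l1 was the 1 member called of 10, where 0.483% of all tested genes were called and 0.327% were called higher with SPC. With the block it was again the 1 member called, where 7.08% of all genes were called. The call without the block lies close to the threshold. It was lost in 7 of 9 fits that left out a library or both libraries of a number, with adjusted p from 0.0637 (without both numbered 1) to 0.677 (without both numbered 2). The others without a call left out control library 1 (0.0686), control library 2 (0.247), control library 3 (0.112), SPC library 2 (0.150) and both libraries numbered 3 (0.0989). The fold change itself stayed between 0.49 and 0.66 on the log2 scale in the 9 fits. Bcl2l1 kept its call in each of the 3 blocked fits that left out a number. Without number 1, 2 and 3 these fits called 2112 of 12135, 699 of 12223 and 563 of 12289 tested genes. It also kept its call in DESeq2 (0.59 ± 0.11, adjusted p = 9.2e-06), where 2.21% of genes were called and Bcl2l1 was again the 1 member.

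**Figure D1:**
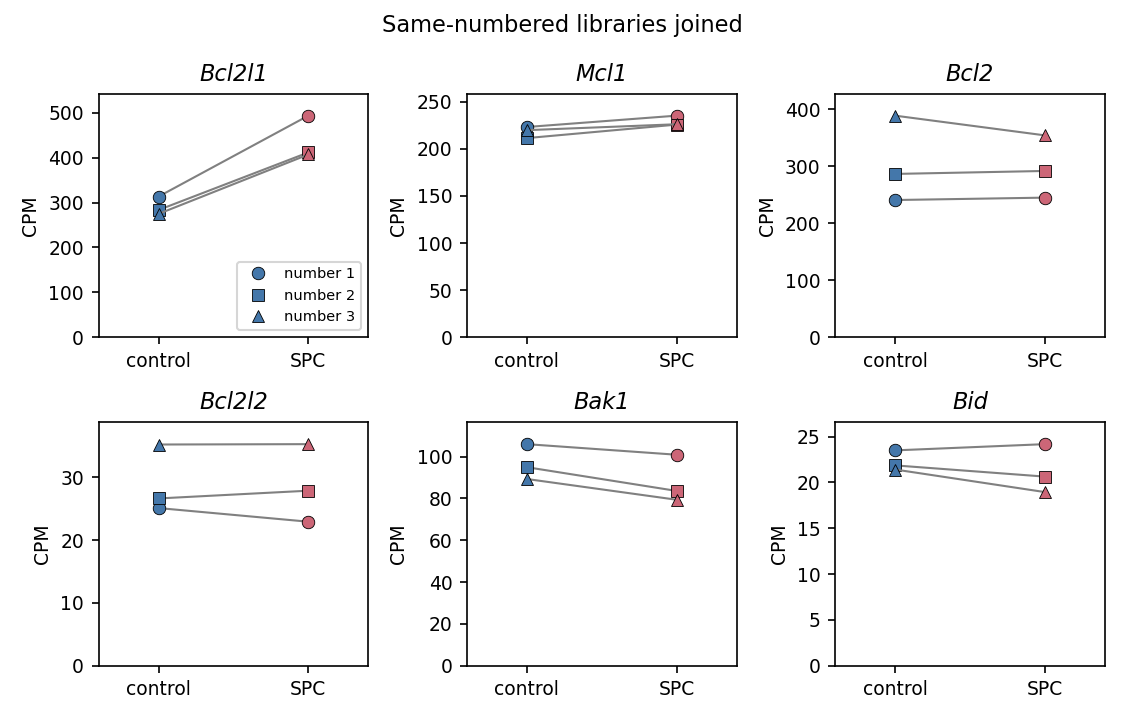
CPM of 6 members (vertical axes from 0) in the control and SPC libraries, with same-numbered libraries joined by a line. Bcl2l1 is higher with SPC in all 3 pairs, while for Bcl2 and Bcl2l2 the lines are nearly level and the 3 numbers lie apart.

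Mcl1, whose short-lived protein guards against BAK, had 223, 211 and 219.9 CPM in control and 235, 226 and 226 CPM in SPC libraries. The SPC libraries lay above the control libraries by a narrow margin, in all 3 pairs. A lack of overlap in either direction was seen in 16.5% of tested genes and in 2 of the 10 members, Bcl2l1 and Mcl1. The log2 fold change of Mcl1 was 0.07 ± 0.06 (95% interval -0.08 to 0.22, adjusted p = 0.801) and it was not called with the block (0.456).

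Bcl2, the founding survival gene of the family, had 241, 286 and 389 CPM in control and 245, 292 and 354 CPM in SPC libraries. The groups overlapped fully, and the libraries numbered 3 were the highest of both groups. The log2 fold change was -0.04 ± 0.18 (95% interval -0.46 to 0.38, adjusted p = 0.970). With the block the SE fell to 0.05 and the interval ran from -0.14 to 0.09 (adjusted p = 0.812). A change as large as that of Bcl2l1 lies outside both intervals. An antisense model that is not analysed here, D630008O14Rik, covers 6.09% of the exonic bases of Bcl2.

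Bcl2l2, the gene of BCL-w, showed the same split by number, with 25.1, 26.6 and 35.2 CPM in control and 22.9, 27.9 and 35.3 CPM in SPC libraries. The groups overlapped, and the libraries numbered 3 were again the highest. SPC over control gave -0.02 ± 0.17 (95% interval -0.41 to 0.38, adjusted p = 0.990, and -0.18 to 0.14 with the block). In all, 13.3% of its exonic bases lie in an exon of Gm20521 on the same strand, a gene model not analysed here, and the authors' counting could split reads there.

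Bak1, the gene of the pore-forming effector BAK, had 106.0, 94.97 and 89.3 CPM in control and 101, 83.6 and 79.4 CPM in SPC libraries. The groups overlapped, but each SPC library was below the control library of its number. The log2 fold change was -0.14 ± 0.11 (95% interval -0.38 to 0.11, adjusted p = 0.752). With the block it was -0.14 ± 0.06 (95% interval -0.26 to -0.02, adjusted p = 0.171), and it was called in the blocked fit without both libraries numbered 1 (-0.18 ± 0.04, adjusted p = 0.00564). That fit called 2112 of 12135 tested genes. Ggnbp1, on the opposite strand, covers 25.5% of the exonic bases of Bak1 and had a mean of 0.860 CPM in control. The effect of this overlap on the Bak1 counts was not tested.

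Of the BH3-only genes, Bcl2l11, which encodes BIM, had 6.43, 7.03 and 6.14 CPM in control and 6.44, 6.55 and 5.43 CPM in SPC libraries. The groups overlapped, with a log2 fold change of -0.09 ± 0.14 (95% interval -0.40 to 0.22, adjusted p = 0.891). Bid, whose product links death receptors to the mitochondrion after cleavage by caspase-8, had 23.5, 21.9 and 21.4 CPM in control and 24.2, 20.6 and 18.9 CPM in SPC libraries. Its log2 fold change was -0.06 ± 0.11 (95% interval -0.31 to 0.18, adjusted p = 0.905). Both the highest and the lowest library of Bid were SPC libraries. Where strand was not used in counting, Bid shares 17.7% of its exonic bases with Bcl2l13 on the opposite strand, a gene at 76.8 CPM in both groups.

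Bad, whose product is held inactive by phosphorylation in cells with growth factor, had 10.9, 10.3 and 10.4 CPM in control and 10.3, 11.1 and 10.2 CPM in SPC libraries, with a log2 fold change of 0.00 ± 0.10 (95% interval -0.23 to 0.23, adjusted p = 0.9998). The groups overlapped. Gpr137 shares 20.5% of its exonic bases on the opposite strand and had 7.51 CPM in control and 8.43 CPM under SPC. Bmf, whose product is tied to the cytoskeleton in healthy cells, had 1.51, 1.33 and 1.91 CPM in control and 2.04, 1.68 and 1.87 CPM in SPC libraries (0.25 ± 0.23, 95% interval -0.26 to 0.76, adjusted p = 0.798). Bik had 1.61, 1.66 and 1.55 CPM in control and 1.55, 1.42 and 1.78 CPM in SPC libraries (-0.02 ± 0.21, 95% interval -0.50 to 0.45, adjusted p = 0.985). Bmf and Bik rested on 40 to 67 and 34 to 51 counts per library, so that counting alone gives a spread of up to 15.8% and 17.1%.

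**Figure D2:**
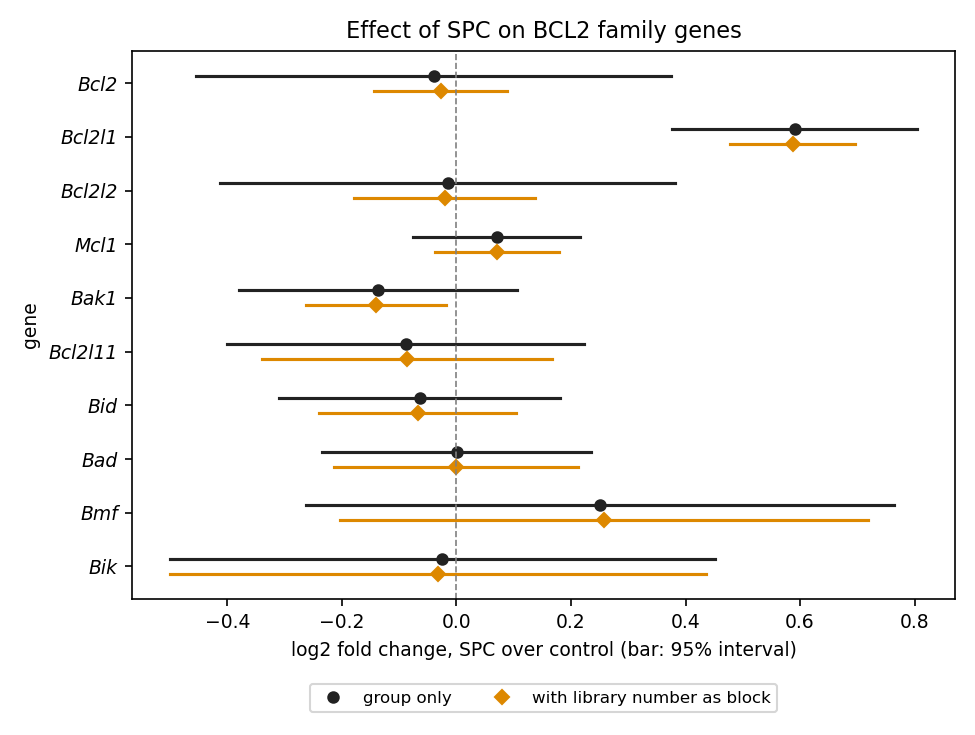
Log2 fold changes of the 10 members, SPC over control (horizontal axis), with 95% intervals from the fit on group alone (black circles) and from the fit with the library number as a block (orange diamonds). In the group-only fit the interval of Bcl2l1, 0.38 to 0.80, is the one that leaves out 0, and with the block that of Bak1, -0.26 to -0.02, leaves it out too.

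The members differed far more in level among themselves than between the groups. Divided by the kilobases (kb) of annotated exon, Mcl1 had 63.8 ± 1.78 CPM per kb in control and 67.0 ± 1.58 with SPC, and Bcl2l1 had 63.4 ± 4.42 and 95.4 ± 10.6. Bak1 followed with 40.2 ± 3.52 and 36.6 ± 4.74 CPM per kb, and Bcl2 with 33.3 ± 8.28 and 32.4 ± 5.99. In control the libraries of Mcl1 and Bcl2l1 overlapped on this scale, and so did those of Bak1 and Bcl2. In SPC libraries every value of Bcl2l1 (88.8 CPM per kb or more) lay above every value of Mcl1 (68.8 or less).

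Below these lay Bcl2l2 (6.497 ± 1.22 CPM per kb in control) and Bid (6.27 ± 0.31), whose libraries overlapped, then Bad (4.11 ± 0.12), Bik (1.01 ± 0.04), Bcl2l11 (0.814 ± 0.057) and Bmf (0.301 ± 0.057), each apart from the next. The part of the exon overlaps given above in this order was not tested. The order depends on the gene length used. By the longest coding transcript, 2.57 kb in place of 4.59 kb, Bcl2l1 stood at 113 CPM per kb in control, above Mcl1 at 63.8, and Bcl2l11 (1.30) stood above Bik (1.20). By that length Bcl2 (42.4) also stood above Bak1 (40.5), and Bid (10.2) above Bcl2l2 (7.60).

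**Figure D3:**
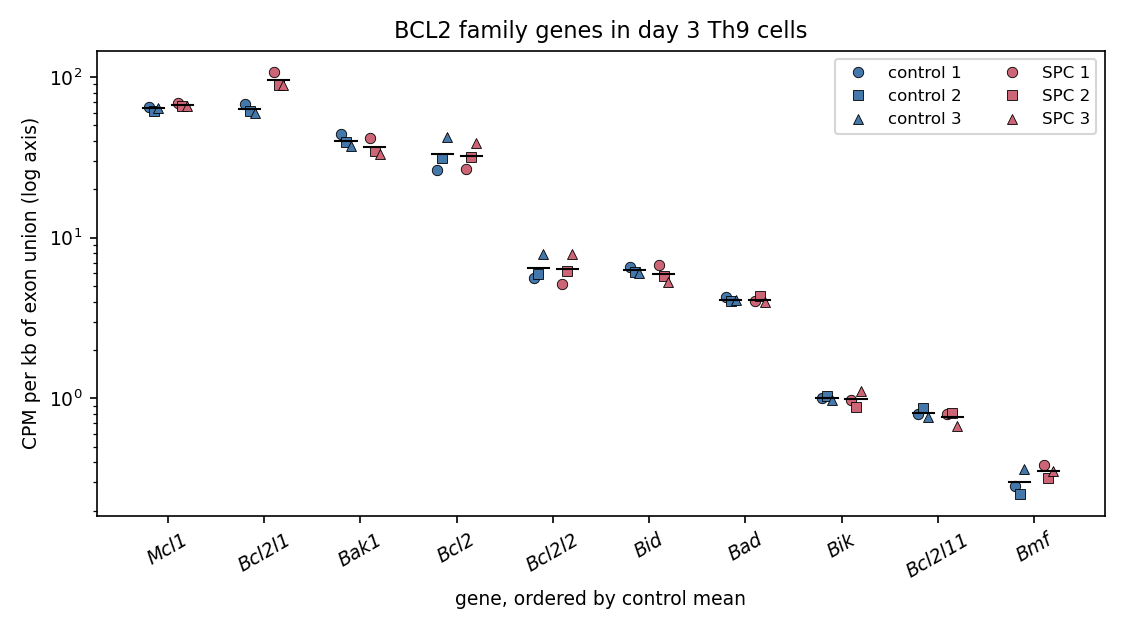
CPM per kb of exon (log axis) of the 10 members in each control (blue) and SPC (red) library, with marker shapes for the library numbers and a bar at each group mean. Mcl1, Bcl2l1, Bak1 and Bcl2 lie above 26 CPM per kb in all 6 libraries, and the other 6 members below 8.

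Summed by role, the 4 survival genes had 166, 161 and 175 CPM per kb in control and 208, 194 and 202 CPM per kb in SPC libraries. The 5 BH3-only genes summed to 12.97, 12.3 and 12.2 CPM per kb in control and 12.99, 12.2 and 11.5 CPM per kb in SPC libraries. Bcl2l1 made up 38.0% ± 3.50 of the survival sum in control and 47.3% ± 3.91 with SPC. Mcl1 went from 38.2% ± 1.31 to 33.3% ± 0.66, and Bcl2 from 19.9% ± 4.23 to 16.1% ± 3.19. With the longest coding transcript as length, the share of Bcl2l1 was 49.9% ± 4.05 and 59.4% ± 4.02. These sums and shares are descriptions and were not tested. They hold the members only and depend on which genes were listed. Among the family genes left out are the effector gene Bax and the BH3-only genes Pmaip1 and Bbc3 (log2 fold changes 0.28, 0.57 and 0.46). The survival genes Bcl2a1b and Bcl2a1d (0.53 and 0.61) are left out too.

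The spread between libraries of a group also set the members apart. In control the coefficient of variation was 24.8% for Bcl2, 18.8% for Bcl2l2 and 18.9% for Bmf, and between 2.78% and 8.76% for the other 7. Counting error at the lowest library was 1.19% for Bcl2 and 3.71% for Bcl2l2, well under that spread. For Bcl2 and Bcl2l2 the spread followed the library number in both groups, as the values above show.

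Further genes of the family were read from a list of 18, of which 14 were tested. None of the 14 was called in the group-only edgeR test, though 5 had an unadjusted p under 0.05, all of them higher. In all, 10.2% of tested genes had such a p, and 5.86% had it with a higher value. With the block 6 rose and 2 fell, where 4.02% of all genes were called higher and 3.07% lower. The median log2 fold change of the 14 was 0.11, against 0.00 for all tested genes. As this list was chosen with earlier results of these data known, its counts are descriptions and cannot show an enrichment.

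Of these, Bax, the second pore-forming effector, had 85.1, 78.7 and 82.7 CPM in control and 117, 94.0 and 88.3 CPM in SPC libraries. Every SPC library lay above every control library. The log2 fold change was 0.28 ± 0.11 (adjusted p = 0.394, blocked 0.0422). Pmaip1 and Bbc3, which encode the BH3-only proteins NOXA and PUMA and are known p53 targets, gave 0.57 ± 0.11 and 0.46 ± 0.23 as log2 fold changes (adjusted p = 0.0636 and 0.568, blocked 0.00278 and 0.0241). Pmaip1 was also called in DESeq2 and in edgeR without the low count filter, and Bbc3 in neither. The libraries of Bbc3 overlapped, with 10.98, 10.8 and 19.8 CPM in control and 16.3, 18.5 and 22.1 CPM under SPC, and its value was higher in each pair. Its blocked call was lost without both libraries numbered 2 (adjusted p = 0.0755).

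The Bcl2a1 genes are near-identical copies that encode the survival protein A1, an NF-kappaB target in lymphocytes, and reads may be split between them. Bcl2a1b had 24.3, 24.4 and 22.7 CPM in control and 39.5, 30.8 and 33.0 CPM in SPC libraries, with no overlap (0.53 ± 0.10, adjusted p = 0.0719, blocked 0.00309). Bcl2a1d had 13.8, 11.7 and 8.86 CPM in control and 23.1, 16.3 and 13.2 CPM under SPC, where the groups overlapped and each pair was higher (0.61 ± 0.22, adjusted p = 0.362, blocked 0.00283). Bcl2l15 had 1.20 to 1.36 CPM in control and 2.11 to 3.13 CPM under SPC (0.91 ± 0.24, adjusted p = 0.169, blocked 0.0267), and its blocked call was lost without both libraries numbered 3 (0.137).

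Bnip3 and Bnip3l, whose products mark mitochondria for removal by autophagy and which are known targets of hypoxia signalling, fell with the block. Bnip3 had 146, 183 and 252 CPM in control and 109, 135 and 196 CPM in SPC libraries (-0.40 ± 0.24, adjusted p = 0.655, blocked 0.000935). Bnip3l had 158, 197 and 255 CPM in control and 125, 173 and 226 CPM under SPC (-0.22 ± 0.22, adjusted p = 0.824, blocked 0.0248). For both genes the groups overlapped, the libraries numbered 3 were the highest and each pair was lower. The blocked call of Bnip3l was lost without both libraries numbered 2 (adjusted p = 0.105) or 3 (0.0832). The remaining tested genes, Bok, Bcl2l12, Bcl2l13, Bcl2l14, Bnip1 and Bnip2, had log2 fold changes from -0.20 to 0.23 and were not called with all libraries in either fit. Bnip1 was called in the blocked fit without both libraries numbered 1, where 2112 of 12135 tested genes were called. Hrk, Bcl2a1a, Bcl2a1c and Bcl2l10 had 34, 18, 5 and 2 counts over all libraries and were not tested.

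**Figure D4:**
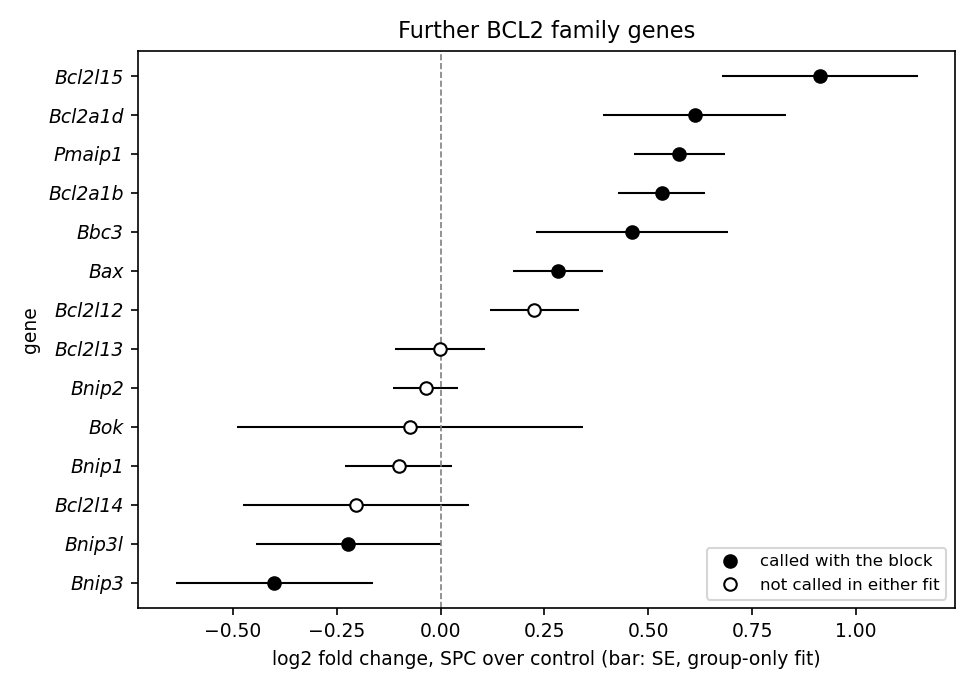
Log2 fold changes, SPC over control (horizontal axis), of the 14 further family genes with their SE from the group-only fit, filled where the gene was called with the library number as a block. The 6 called genes at the top, from Bcl2l15 to Bax, lie between 0.28 and 0.91, and the 2 at the bottom, Bnip3l and Bnip3, at -0.22 and -0.40.

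Around the family, 8 lists of pathway genes, the 14 further family genes among them, held 94 tested genes. The group-only edgeR test called none of them, and 18 had an unadjusted p under 0.05 (10.2% of all tested genes had one). DESeq2 called 6 (2.21% of all genes), namely Bcl2a1b, Bcl6, Casp6, Fas, Il7r and Pmaip1. With the block 15 rose and 10 fell, 26.6% of the 94, where 7.08% of all genes were called, 4.02% higher and 3.07% lower. The median log2 fold change was 0.00, as it was for all tested genes. The lists were chosen with earlier results of these data known, so their shares of called genes cannot show an enrichment. The shares of the single lists below are descriptions for the same reason.

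Downstream of the mitochondrion, none of the 11 genes of the apoptosome and mitochondrial death factors was called in the group-only test. With the block 3.07% of all genes were called lower, and 1 of the 11 was. That was Vdac1, which encodes an outer membrane channel, with 401, 421 and 459 CPM in control and 359, 369 and 371 CPM in SPC libraries (-0.22 ± 0.07, adjusted p = 0.292, blocked 0.0256). That call was lost without both libraries numbered 2 (0.161) or 3 (0.279). Htra2 and Endog gave log2 values of 0.13 ± 0.07 and -0.27 ± 0.14 (adjusted p = 0.616 and 0.565). Both were called in the blocked fit without both libraries numbered 1, where 2112 of 12135 tested genes were called. Among 11 tested caspase and substrate genes, 1 fell with the block, beside the same 3.07% of all genes. That gene was Casp6, an executioner caspase. It had 25.6, 24.3 and 34.6 CPM in control and 15.2, 14.1 and 17.3 CPM under SPC, with no overlap (-0.86 ± 0.15, adjusted p = 0.0514, blocked 0.000183).

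None of the 6 tested inhibitor of apoptosis genes was called with all libraries in either fit. Birc2 and Birc6 gave 0.19 ± 0.11 and -0.19 ± 0.13 (adjusted p = 0.636 and 0.695), and Naip2, at 0.130 to 0.818 CPM, had -1.20 ± 0.46 (adjusted p = 0.402). Birc2 was called in the blocked fit without both libraries numbered 1, where 2112 of 12135 tested genes were called. Birc6 and Naip2 were called in that without both numbered 2, where 699 of 12223 were. Of 11 tested death receptor genes, 3 rose and 2 fell with the block, against 4.02% and 3.07% of all genes. Fas, a death receptor, had 6.74, 7.17 and 8.50 CPM in control and 10.9, 11.4 and 12.6 CPM under SPC (0.64 ± 0.13, adjusted p = 0.0779, blocked 0.00296). Its ligand gene Fasl had 4.65, 4.01 and 4.77 CPM in control and 3.28, 2.14 and 2.04 CPM under SPC (-0.83 ± 0.22, adjusted p = 0.173, blocked 0.0146). Neither gene overlapped between the groups. Tnfrsf10b, the TRAIL receptor gene, had 0.33 ± 0.08 (adjusted p = 0.162, blocked 0.0282), and its blocked call was lost without both libraries numbered 2 (0.0614) or 3 (0.213).

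Upstream, 3 of 16 transcription factor genes rose and 1 fell with the block, where 4.02% of all genes were called higher and 3.07% lower. Stat5a, whose product carries IL-2 family signals to the Bcl2l1 gene, had 443, 437 and 471 CPM in control and 502, 533 and 614 CPM in SPC libraries, with no overlap (0.29 ± 0.09, adjusted p = 0.244, blocked 0.00849). Bcl6, a repressor, had 0.80 ± 0.22 (adjusted p = 0.202, blocked 0.00653), and Rel, an NF-kappaB subunit of activated T cells, 0.30 ± 0.14 (adjusted p = 0.550, blocked 0.0759). Of 9 survival cytokine receptor genes, 1 rose and 3 fell with the block, beside the same shares of all genes. Il7r, the receptor of a cytokine that maintains BCL2 in T cells, had 16.1, 19.5 and 21.5 CPM in control and 9.99, 11.8 and 13.9 CPM under SPC, with no overlap (-0.68 ± 0.15, adjusted p = 0.104, blocked 0.000876). Il9r and Il4ra had -0.67 ± 0.20 and -0.16 ± 0.07 (adjusted p = 0.241 and 0.466, blocked 0.0187 and 0.0839). Of 16 genes that act on the family's proteins, 2 rose with the block, where 4.02% of all genes did. Pim1, a kinase that phosphorylates BAD, was one of them (0.28 ± 0.14, adjusted p = 0.568, blocked 0.0066), while Ppp3ca and Usp9x had -0.25 ± 0.09 and -0.20 ± 0.12 (adjusted p = 0.346 and 0.651) and were not called with all libraries in either fit. Without both libraries numbered 1 the blocked fit called both (0.00616 and 0.0322), and without those numbered 2 it called Usp9x (0.0325). Those fits called 2112 of 12135 and 699 of 12223 tested genes. Rel and Il4ra were also called in the blocked fit without both libraries numbered 1. The blocked calls of Stat5a, Il9r and Pim1 were lost without both libraries numbered 3 (0.113, 0.0813 and 0.0864).

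By likeness of pattern, the 3 genes closest to Bcl2l1 over the 6 libraries were Maf, Slc15a3 and Pdgfb, out of 9157 candidates with a mean of at least 5 CPM. Pearson's r of log2 CPM was 0.999, 0.995 and 0.994, and 239 candidates had r over 0.9, since any gene with a like difference between 2 groups of 3 correlates. Maf, a transcription factor gene, had 6.02, 5.31 and 5.18 CPM in control and 12.5, 9.34 and 8.996 CPM under SPC (0.90 ± 0.16, adjusted p = 0.0538, blocked 0.000937). Pdgfb, a growth factor gene, rose from 57.1 ± 5.70 to 100.4 ± 12.4 CPM (0.81 ± 0.11, adjusted p = 0.0258), and Slc15a3, a transporter gene, had 0.60 ± 0.11 (adjusted p = 0.0597, blocked 0.00063).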

How the data were processed

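The authors deposited raw read counts per gene symbol, 1 file for each library. TopHat and the mm10 build were used, per the submitters' processing notes. For the counting program, annotation and strand setting, nothing is given in the sources used here. The test was that of edgeR 4.0.16 under R 4.3.3 (quasi-likelihood F test, robust, TMM scaling, filterByExpr with a minimum count of 10 and a minimum total of 15, group as the single term). A gene was called at an adjusted p (Benjamini-Hochberg, over all 12226 tested genes) under 0.05. CPM are TMM-scaled. Standard errors were derived from the fold change and F, and the 95% interval uses the test's degrees of freedom. Coordinates, exon overlaps and lengths are from GENCODE M21 on GRCm38, which is mm10, and promoter windows from RefSeq. No test by permutation was made, since 3 against 3 cannot give an exact p below 0.10. The steps were tested on simulated data that had no effect of the library number and held planted changes larger than that of Bcl2l1. That run does not show how the fits do on smaller changes or on paired libraries.

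Same-numbered libraries deviated together from their group means (r = 0.413, 0.208 and 0.508 across genes), and each correlated best with its own number, so the numbers were taken to pair the libraries. The pairing comes from the data and from the numbers in the labels. The blocked fit is given where it changes a call. Chi-square per degree of freedom between libraries of a group was 4.82 to 34.8. The members and lists were chosen with earlier results of these data known. Named are all members, any further family gene tested, the 3 genes with the smallest p in each other pathway list, and the 3 genes most like the member with the smallest p. Alternatives were DESeq2 1.42.0, RLE scaling, no filter, the block, and leaving out libraries. The fits that combine the block with leaving out a number were added after seeing the data. Of the listed genes, Faim3 and Hbb-bt had no row under that symbol. Some results under the naming rule are not reported here.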

Additional observations from a re-analysis of the deposited data

How the results depend on the processing

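Bcl2l1 was called under RLE scaling, DESeq2, no filter and the replicate block, and the fits that lost its call are given with its values. The number of members called, 1 in the group-only fit, was 0 to 1 when a library or number was left out, and 2 with the replicate block without both libraries numbered 1, where Bak1 joined it. Called genes of the whole table, 59 in the group-only fit, were 279 in DESeq2, 147 without the filter, 866 with the replicate block and 0 to 66 when a library or number was left out. The 0 came from edgeR on the libraries numbered 1 and 3, with 502 genes at an unadjusted p under 0.05. With the replicate block and a number left out they were 2112, 699 and 563. Called genes of the 8 pathway lists, 0 in the group-only edgeR fit, were 6 in DESeq2, 5 without the filter and 25 with the replicate block. They were 0 to 2 when a library or number was left out, and 45, 20 and 15 with the replicate block and a number left out. The 5 without the filter were Bcl2a1b, Casp6, Fas, Il7r and Pmaip1, where 147 of 16801 tested genes were called.

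Signs near 0 turned in 5 uncalled members when a library or number was left out. The cause was not tested. Log2 fold changes then ran from -0.19 to 0.18 for Bcl2, -0.19 to 0.15 for Bcl2l2, -0.17 to 0.0104 for Bid, -0.048 to 0.044 for Bad and -0.14 to 0.0846 for Bik. Bad also turned to -0.00043 under RLE scaling, -0.0015 in DESeq2 and -0.00026 with the replicate block. With the block and a number left out, Bcl2 was 0.0253, Bcl2l2 0.0342, Bad -0.0485 and Bik 0.0774 where they turned. The signs of Bcl2l1, Mcl1, Bcl2l11, Bak1 and Bmf did not turn in any fit that was run. By the longest coding transcript, control levels per kb moved to 42.4 for Bcl2, 113 for Bcl2l1, 1.30 for Bcl2l11, 10.2 for Bid, 6.86 for Bad and 1.20 for Bik. Counting error was largest for Bmf and Bik, the least counted members.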

Other observations

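Cflar, which encodes the caspase-8 inhibitor c-FLIP, was chosen after its values were seen. It had 167, 178 and 188 CPM in control and 189, 242 and 276 CPM in SPC libraries, and no library of the groups overlapped. Its log2 fold change was 0.41 ± 0.13 (edgeR, adjusted p = 0.268, with the block 0.0062), and the pairs numbered 1, 2 and 3 gave 0.18, 0.44 and 0.56. Ddit3, the gene of the stress factor CHOP, also chosen after its values were seen, had 20.4, 23.6 and 42.5 CPM in control and 28.8, 30.4 and 56.5 CPM with SPC. Its groups overlapped, the libraries numbered 3 were the highest of both, and each pair was higher (0.42 ± 0.32, adjusted p = 0.738, with the block 0.00393).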
